A study of Mus musculus with 6 samples.

Results

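The tripartite motif (TRIM) genes of mouse blood progenitors were taken as the protein-coding entries whose symbol is Trim followed by a digit. This gave 68 of the 55471 gene IDs in the deposited table, and of its 21933 protein-coding gene IDs. RNA had been sequenced from GMLPs, progenitors sorted from bone marrow as lineage-negative, Kit+, Sca1+, CD48+ and CD150- cells. One group, L28BME, came from mice with the genotype LIN28B*MLL-ENL (3 libraries), and the other, ME, from mice with MLL-ENL alone (3 libraries). Both groups therefore carried MLL-ENL, a fusion that drives acute leukaemia, and cells of both groups were cultured with DOX for 3 days before RNA isolation. What drives the transgenes is not stated in the labels, and nor is whether the 3 libraries of a group stem from different animals or cultures, and the p-values below therefore reflect how far these libraries spread, which may be technical.

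TRIM proteins share an N-terminal RING finger, 1 or more B-boxes and a coiled coil, and differ in the domain at the C-terminus. Through the RING finger most of them act as ubiquitin E3 ligases, passing ubiquitin from an E2 enzyme to a substrate, and a few lack it. The family is known for restricting viruses and tuning innate immune signals, and some members silence chromatin, control RNA or organise microtubules. LIN28B is an RNA-binding protein that blocks maturation of the let-7 microRNAs, and Trim71 (also called Lin41) is a long-known target of let-7.

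Values are TPM (transcript abundance scaled for transcript length and library total), so levels can be compared between genes, and read depth is unknown. Each library summed to between 999919 and 999996 TPM, and between 13215 and 13288 genes reached 1 TPM. The gene entry for Lin28b read 11.2, 11.7 and 11.9 TPM in L28BME and was at 0 in all ME libraries. The files do not tell whether these reads come from a transgene or from the gene of the mouse. Of the markers of the sort, Kit averaged 79.2 ± 8.10 TPM in L28BME and 94.1 ± 15.7 TPM in ME (SD, n = 3 each). Cd48 was lower, at 228 ± 2.24 TPM in L28BME and 297 ± 5.29 TPM in ME (limma adjusted p = 0.000890). Ly6a, which encodes Sca1, was lower too, at 2.07 ± 0.970 TPM in L28BME and 10.6 ± 1.09 TPM in ME (limma adjusted p = 0.00376), while Slamf1, which encodes CD150, stayed below 1 TPM in every library. Genes listed as markers of other blood cells also differed, and whether the sorted progenitors themselves express them was not tested. Of the neutrophil markers 3 of 4 passed as higher (summed 266 to 267 TPM in L28BME, 110 to 112 TPM in ME). Most of that sum was S100a8, at 241 ± 0.423 TPM in L28BME and 93.8 ± 1.71 TPM in ME, and Ly6g was not tested. Of the megakaryocyte markers 3 of 4 were higher too (119 to 137 TPM in L28BME, 79.8 to 83.3 TPM in ME). Of the 3 dendritic cell markers Flt3 was higher (187 ± 2.10 TPM in L28BME, 96.6 ± 3.96 TPM in ME), Itgax was lower and Siglech was not called. Of the macrophage markers 1 of 4 was lower with C1qa listed at 0. Of the stromal and endothelial markers 1 of 3, Pecam1, was lower (113 ± 2.45 TPM in L28BME, 163 ± 0.668 TPM in ME). Col1a1 stayed below 1 TPM in every library, and Cxcl12 was listed at 0. The B cell, the T cell and the NK cell markers, each list taken alone, summed to less than 1 TPM in each library. The part of these markers in the TRIM results was not tested, and in bulk RNA fewer cells of a type and less RNA per cell cannot be told apart.

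Of the 68 TRIM genes, 37 had at least 1 TPM in at least 3 of the 6 libraries and were tested. Among these the mean level over all libraries ran between 1.27 and 465 TPM with a median of 15.6 TPM, and 25 genes averaged 10 TPM or more. Another 20 were listed at 0 in all 6 libraries: Trim15, Trim29, Trim31, Trim38, Trim40, Trim42, Trim43a, Trim43b, Trim43c, Trim50, Trim52, Trim54, Trim60, Trim61, Trim63, Trim67, Trim71, Trim72, Trim75 and Trim80. The other 11 lay above 0 in some library but failed the filter: Trim2, Trim7, Trim9, Trim10, Trim17, Trim30b, Trim30c, Trim34b, Trim47, Trim66 and Trim69. The highest single value among the untested genes was 1.49 TPM, for Trim7 in ME replicate 2.

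Summed over the 68 genes, TRIM transcripts made up 1330, 1339 and 1308 TPM in L28BME, against 1310, 1293 and 1305 TPM in ME. The groups overlapped, and the means differed by 23.2 TPM. Trim28 alone gave 34.0% to 35.1% of that sum in L28BME and 36.1% to 36.4% in ME. Without it the remaining genes summed to 874, 884 and 849 TPM in L28BME, against 837, 822 and 831 TPM in ME. These sums no longer overlapped between groups, and the means differed by 39.0 TPM.

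**Figure D1:**
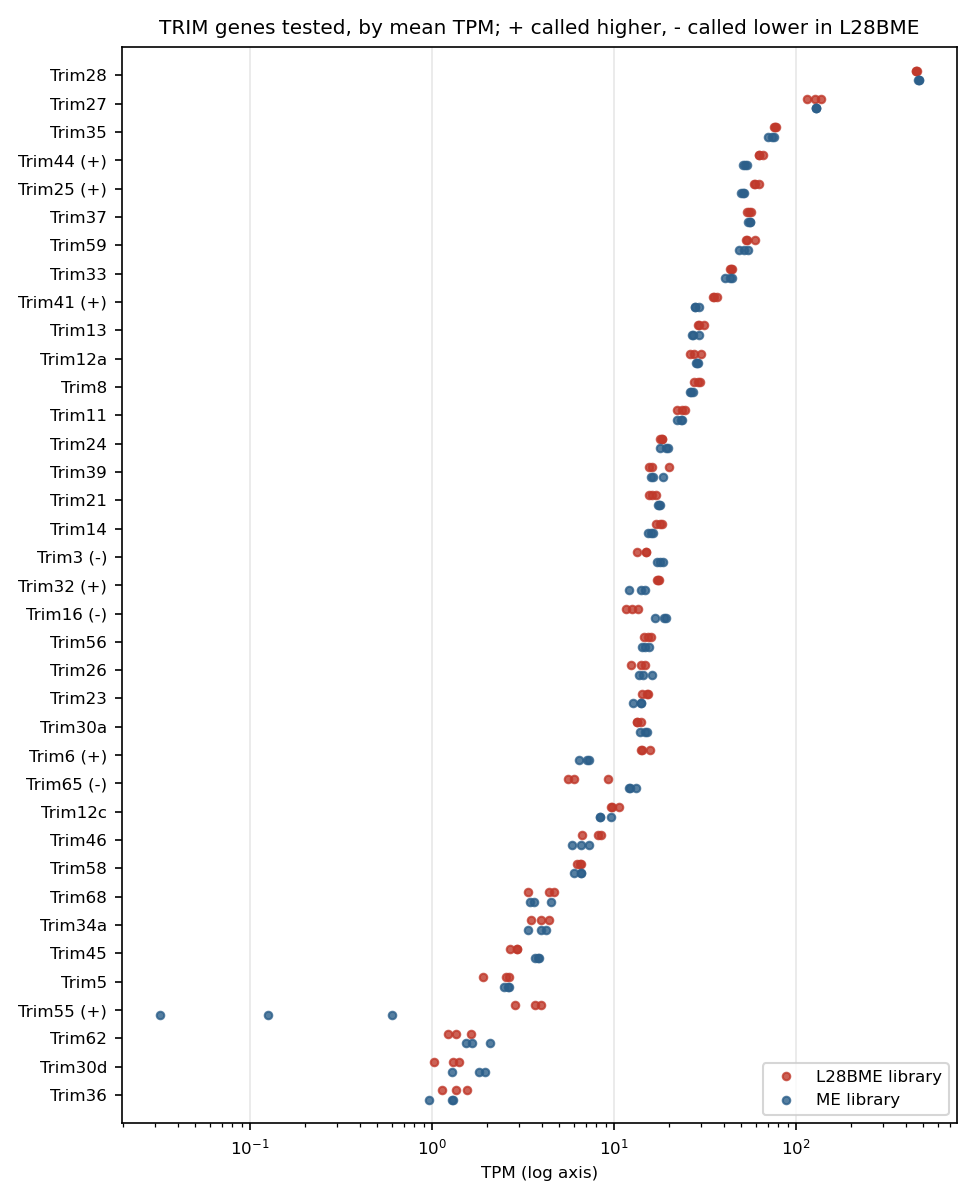
TPM of each tested TRIM gene in the 3 L28BME libraries (red, upper points) and the 3 ME libraries (blue, lower points), on a log axis and ordered by mean level. Trim28 and Trim27 stand above 100 TPM, most genes lie close together in both groups, and Trim55, Trim6, Trim65 and Trim16 show the widest gaps.

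Against ME, 6 tested TRIM genes were higher in L28BME, namely Trim55, Trim6, Trim32, Trim41, Trim44 and Trim25, and 3 were lower, namely Trim65, Trim16 and Trim3 (limma, Benjamini-Hochberg adjusted p under 0.05 over all 13348 genes tested). These 9 of 37 are 24.3% of the tested members, beside 14.9% of all genes tested, 8.28% called higher and 6.6% called lower. Trim55 entered the test only through the L28BME libraries and so had to differ, and without it 8 of 36 were called, or 22.2%, 5 of them higher. Groups did not overlap for 17 of the 37, or 45.9% (16 of 36 without Trim55, or 44.4%), beside 36.7% of all genes tested. The median absolute log2 fold change was 0.11 over the tested TRIM genes and 0.14 over all genes tested, and only Trim55 passed 1. The median signed log2 fold change was 0.03 for the TRIM genes and 0.003 for all. The 28 genes not called lay between -0.31 and 0.21. With any 1 library left out, 3 to 5 genes were called higher (3 without L28BME replicate 1) and 0 to 2 lower (0 without ME replicate 2), while over all genes 592 to 694 were called higher and 447 to 566 lower, against 1105 and 881 with every library.

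**Figure D2:**
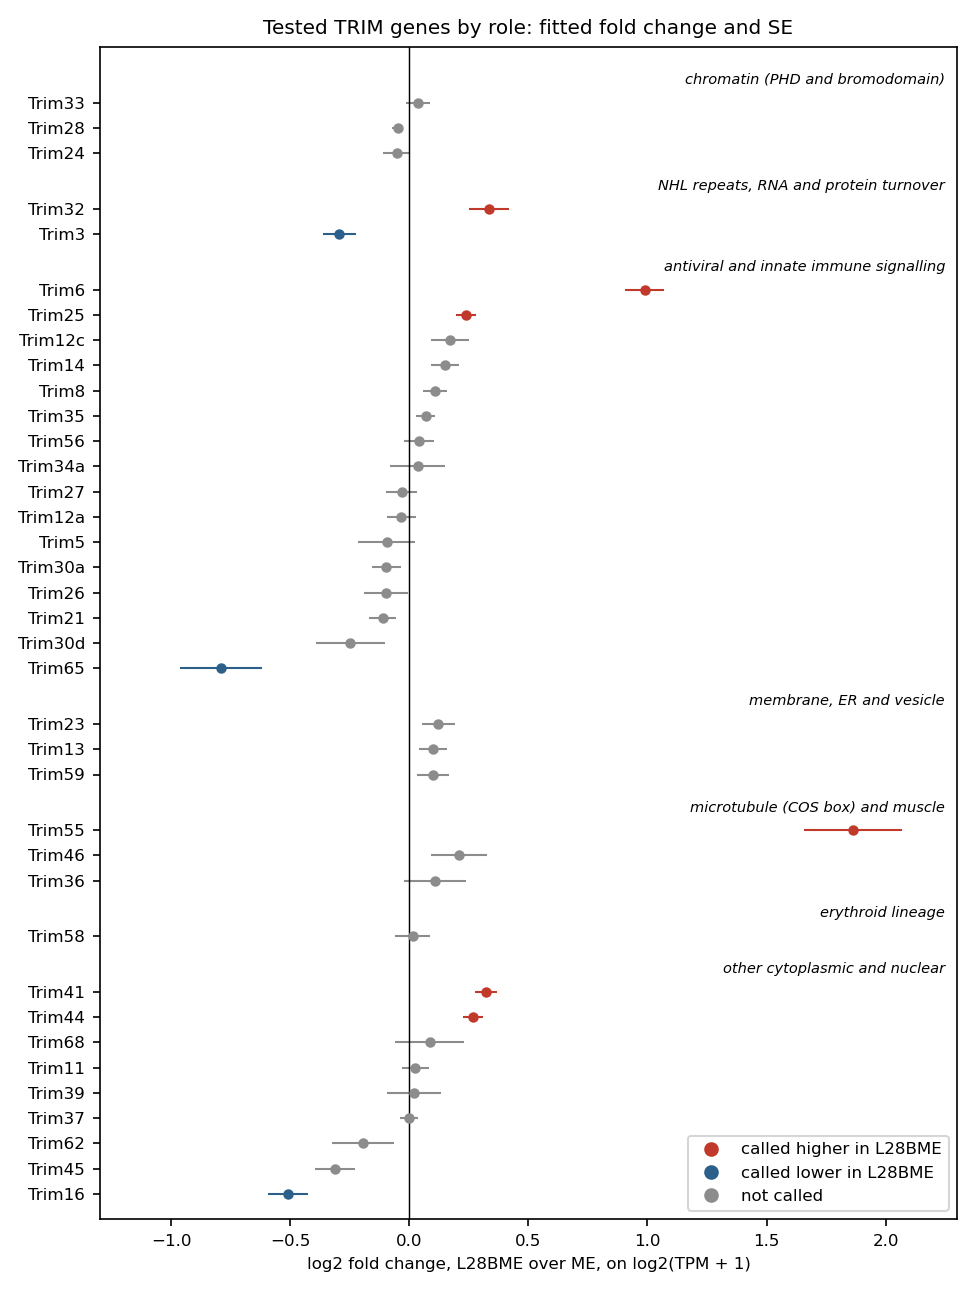
Fitted log2 fold change of L28BME over ME on the log2(TPM + 1) scale with its standard error (line) for the 37 tested TRIM genes, grouped by role. Red marks genes called higher in L28BME, blue those called lower and grey those not called. The chromatin, membrane and erythroid groups, with 3, 3 and 1 tested genes, hold no called gene, beside 14.9% called over all genes tested.

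Among the chromatin regulators, which carry a PHD finger and a bromodomain, none of the 3 tested genes passed. Trim28 (KAP1; chromosome 7, 12999114 to 13031035 of GRCm38) is the co-repressor that KRAB zinc finger proteins recruit to silence transposons. It was the most abundant TRIM gene, at 456, 455 and 460 TPM in L28BME, against 473, 470 and 474 TPM in ME. Every L28BME library lay below every ME library, but the gap was small: 457 ± 2.43 and 473 ± 1.89 TPM (SD, n = 3 each), or -0.05 on the log2 scale (SE 0.022, limma adjusted p = 0.206). Trim33, a regulator of SMAD4, averaged 43.9 ± 0.732 TPM in L28BME and 42.8 ± 2.08 TPM in ME, and Trim24, a nuclear receptor cofactor and p53 ligase, 18.1 ± 0.320 TPM in L28BME and 18.9 ± 0.967 TPM in ME, and neither passed. Trim66 did not reach 1 TPM in any library. Of 12 tested partners of TRIM28 in heterochromatin and the KRAB pathway, 2 were higher and 0 lower, with 1 called without L28BME replicate 1. That count is near the 14.9% called over all genes tested. Cbx5, which encodes the heterochromatin protein HP1 alpha, averaged 147 ± 4.45 TPM in L28BME and 118 ± 2.51 TPM in ME (log2 fold change 0.31, limma adjusted p = 0.00407). Chd4, the remodelling enzyme of the NuRD complex, averaged 288 ± 6.02 TPM in L28BME and 247 ± 9.23 TPM in ME (0.22, limma adjusted p = 0.0149). Setdb1, the histone methyltransferase that TRIM28 recruits, averaged 54.7 ± 0.307 TPM in L28BME and 51.8 ± 1.25 TPM in ME and did not pass.

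Because Trim71 is a known target of let-7, matches to the let-7 seed were sought in the 3' UTRs of the TRIM genes. The mature microRNAs below (RefSeq, GRCm38.p6) show the shared seed, bases 2 to 8, in capitals, and 10 of the 11 let-7 family microRNAs read hold it. MicroRNAs were not measured in these libraries.
mmu-let-7a-5p: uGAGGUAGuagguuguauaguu
mmu-let-7g-5p: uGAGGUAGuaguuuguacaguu
mmu-miR-98-5p: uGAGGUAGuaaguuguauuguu

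The match to that seed on a transcript, CTACCTC, was searched on the sense strand of the longest annotated 3' UTR of each gene (GENCODE M21 transcripts). It stood in 1145 of 10860 tested protein-coding genes, or 10.5%. By call, it stood in 205 of 1042 genes called higher in L28BME (19.7%), 62 of 793 called lower (7.82%) and 878 of 9025 not called (9.73%), whose median UTR lengths were 1252, 1066 and 1155 bases. Of the 67 TRIM genes with an annotated 3' UTR, 8 held it, 5 of them among the 37 tested (13.5%). Of those 5, Trim6, Trim25 and Trim41 were called higher and Trim16 and Trim65 lower, beside 14.9% of all genes tested called either way. None of the 28 TRIM genes not called held a match. With so few genes, whether a match goes with a call in the TRIM genes was not tested. A match is a description of letters, not a shown site of binding. The sites below are shown for their surroundings, with the seed match in capitals, as DNA letters on the strand of the gene.
Trim6 first match: tactgattatagatCTACCTCacagtgcc
Trim6 second match: tactgattatagctCTACCTCacagcacc
Trim6 sixth match: tctttataaacaaaCTACCTCtaagtttg
Trim25: atggagaagcatatCTACCTCctcatgcc
Trim41: ccaccccccaatttCTACCTCcatagact
Trim16: attctaggatCTACCTCccaggggt
Trim65: attaaagatgtgtaCTACCTCacccggaa
Trim71 first match: acattgcctaagtcCTACCTCagcttaaa
Trim71 second match: gtgataatttctatCTACCTCaactcttt

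Trim6 held 6 matches in a 3' UTR of 2220 bases. The first 5 began at bases 541, 586, 631, 676 and 721, exactly 45 bases apart, and each was followed by an A, while the sixth began 302 bases further on, at base 1023. The repeated matches sit in near-identical surroundings, as the first pair of lines shows, and the window of the match at base 631 repeats that at base 541 letter for letter. Trim71 held 4 matches, each followed by an A, as did the single match of Trim65. Of the other members, Trim67 held 3 matches and Trim60 held 1, and both were listed at 0. Among tested protein-coding genes, 147 held at least 2 matches, of which 31 were higher and 6 lower. Of all genes tested, 8.28% were called higher and 6.6% lower. Only 4 held at least 6: Trim6, which was higher, and Nr6a1 (8), Mcf2l (7) and Nudt12 (7), which were not called.

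**Figure D3:**
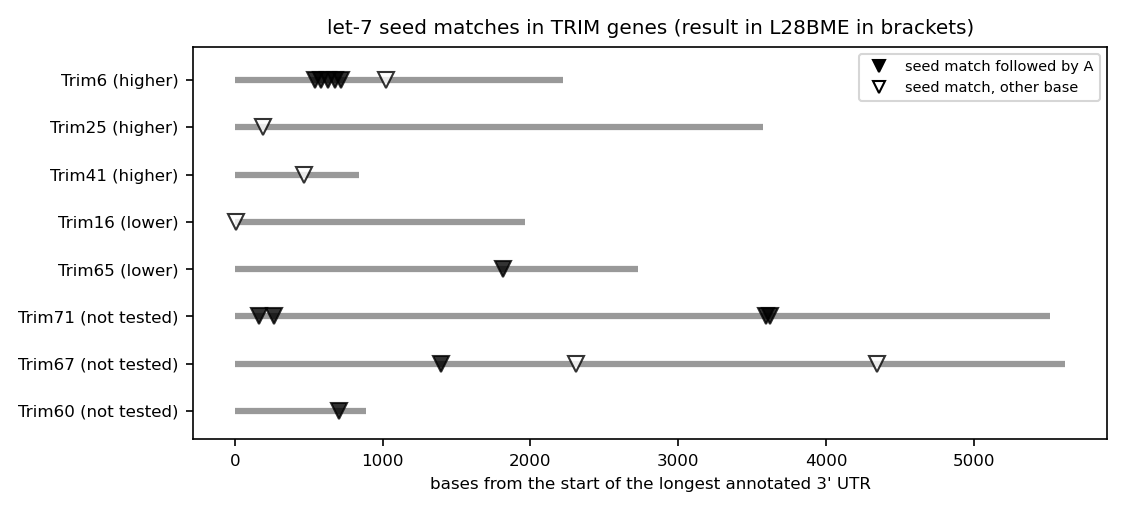
Position of let-7 seed matches (triangles) along the longest annotated 3' UTR (grey bar, in bases from its start) of the 8 TRIM genes that hold one, with the result in L28BME in brackets. Filled triangles mark matches followed by an A; Trim6 shows 5 of these close together at 541 to 721 bases, and Trim71 shows 4.

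Trim6 (chromosome 7, 104218793 to 104235152, plus strand) had the smallest adjusted p of the tested TRIM genes. Its human protein makes free ubiquitin chains that activate the kinase IKBKE in the interferon response. It stood at 14.3, 15.8 and 14.0 TPM in L28BME, against 7.31, 7.07 and 6.39 TPM in ME. The lowest L28BME library lay far above the highest ME library. The means were 14.7 ± 0.950 TPM in L28BME and 6.92 ± 0.474 TPM in ME, a 2.13-fold difference in TPM and 0.99 on the log2 scale of the fit (SE 0.081, limma adjusted p = 0.00124).

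Trim6 lies at one end of a cluster of 10 TRIM genes over 289 kb of chromosome 7, followed in genome order by Trim34a, Trim5, Trim12a, Trim34b, Trim12c, Trim30b, Trim30c, Trim30a and Trim30d. The cluster holds related copies, among them mouse relatives of primate TRIM5, which restricts retroviruses. Of the 7 tested, only Trim6 was called, beside 14.9% of all genes tested, and the other 6 lay between -0.25 and 0.17 on the log2 scale. A count of 1 in 7 is near that share. Trim12a, the most abundant, stood at 27.5, 30.1 and 26.3 TPM in L28BME, against 28.9, 28.7 and 28.2 TPM in ME, and the groups overlapped. Trim30a, which restrains signalling through TAB proteins, averaged 13.6 ± 0.383 TPM in L28BME and 14.6 ± 0.625 TPM in ME (limma adjusted p = 0.341). Trim12c averaged 9.997 ± 0.528 TPM in L28BME and 8.78 ± 0.695 TPM in ME (0.17, limma adjusted p = 0.227), without overlap. Trim30c, which was not tested, read 1.36, 0.858 and 0.836 TPM in L28BME, against 0.176, 0.329 and 0.571 TPM in ME, also without overlap. Several of these copies share sequence, so reads could be split between them: of the 50-base windows of their transcripts, 39.8% of Trim34a, 36.3% of Trim5, 33.0% of Trim12c and 10.4% of Trim12a also occur in another gene, beside 1.51% of Trim6.

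**Figure D4:**
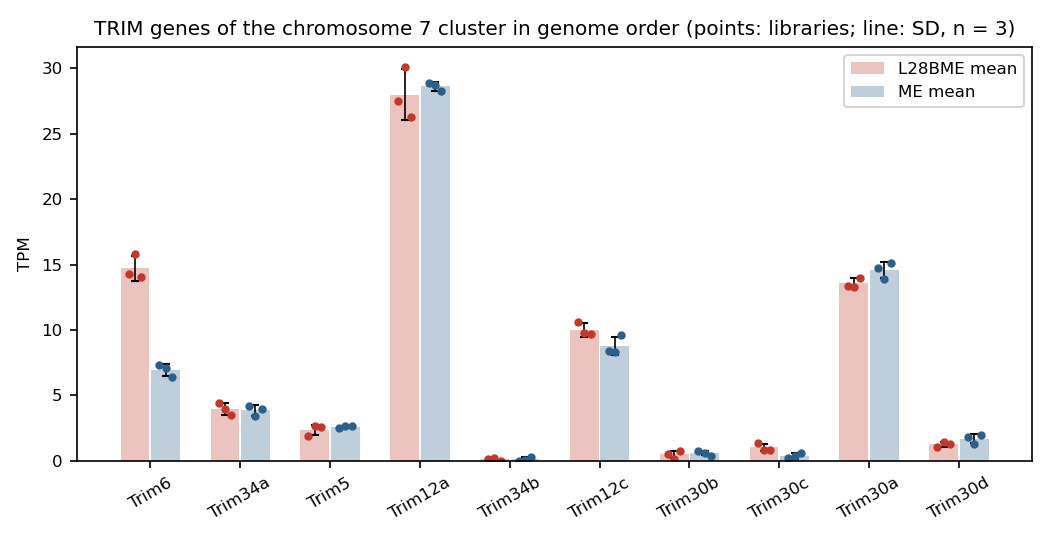
TPM of the 10 TRIM genes of the chromosome 7 cluster in genome order, as L28BME (red) and ME (blue) means (bars) with libraries (points) and SD (lines, n = 3). Trim6 differs between the groups, at 14.7 TPM in L28BME and 6.92 TPM in ME, and the 6 other tested genes lie between -0.25 and 0.17 on the log2 fold change scale.

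Of the 24 TRIM genes listed for antiviral and innate immune signalling, 16 were tested, and Trim6 and Trim25 were higher, Trim65 was lower and 13 were not called. Of all genes tested, 14.9% were called. Together the 24 summed to 438 ± 11.2 TPM in L28BME and 424 ± 5.58 TPM in ME. Trim25 (chromosome 11, 88999376 to 89020293) is an RNA-binding ligase that activates the RNA sensor RIG-I and was described as a cofactor of the uridylation of let-7 precursors by LIN28A and TUT4. It stood at 62.8, 59.5 and 58.9 TPM in L28BME, against 51.3, 50.1 and 51.8 TPM in ME, without overlap. Its log2 fold change was 0.24 ± 0.042 (SE, limma adjusted p = 0.0164). The call was lost without L28BME replicate 1, ME replicate 1 or ME replicate 2 (limma adjusted p = 0.0512, 0.0511 and 0.0608), at log2 fold changes of 0.21, 0.24 and 0.22. Tut4, the uridylyltransferase itself, was also higher, at 38.8 ± 1.16 TPM in L28BME and 32.9 ± 1.46 TPM in ME (0.24, limma adjusted p = 0.0316), while Tut7, its close relative, was not called. Of the 5 tested genes of LIN28 and let-7 uridylation, Lin28b, Lin28a and Tut4 were higher. Lin28b is the genotype difference itself and entered the test only through L28BME, which leaves 2 of 4, beside 14.9% of all genes tested. With any 1 library left out, 0 to 2 of the 5 were called, and Lin28b fails the filter if that library is an L28BME one.

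Trim65 (chromosome 11, 116121846 to 116131128, minus strand) activates the RNA sensor MDA5 and, in human cells, ubiquitinates TNRC6, a partner of Argonaute in microRNA silencing. It stood at 9.24, 5.56 and 6.05 TPM in L28BME, against 13.1, 12.3 and 12.1 TPM in ME. All L28BME libraries were below all ME libraries, and L28BME replicate 1 stood apart from the other two. The log2 fold change was -0.79 ± 0.17 (SE, limma adjusted p = 0.0322). The call held without L28BME replicate 1 (-0.99, limma adjusted p = 0.00720) and was lost without any other library (0.0827 to 0.0972), at log2 fold changes between -0.81 and -0.67. Trim65 shares 225 exonic bases with its neighbour Trim47 on the same strand, and the 2 summed gave -0.71 (limma adjusted p = 0.0318).

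The other abundant members of the innate immune group did not pass. Trim27, a nuclear and cytoplasmic ligase first found fused to RET, stood at 127, 137 and 114 TPM in L28BME, against 129, 128 and 128 TPM in ME, so that the L28BME libraries spread around the ME libraries. Trim35, found in mouse as a gene of a haematopoietic lineage switch, averaged 76.6 ± 0.854 TPM in L28BME and 73.1 ± 2.50 TPM in ME. Trim8, which acts on SOCS1, averaged 28.7 ± 1.06 TPM in L28BME and 26.5 ± 0.470 TPM in ME (0.11, limma adjusted p = 0.203). Trim14, a mitochondrial adaptor without a RING finger, averaged 17.7 ± 0.714 TPM in L28BME and 15.9 ± 0.485 TPM in ME (0.15, limma adjusted p = 0.150), but 31.3% of its exonic bases lie opposite Nans. Trim21, the cytosolic receptor for antibody, averaged 16.3 ± 0.707 TPM in L28BME and 17.7 ± 0.234 TPM in ME (-0.11, limma adjusted p = 0.241). Trim35, Trim8, Trim14 and Trim21 had no overlap between groups, which also held for 36.7% of all genes tested. Trim26, Trim56, Trim12a, Trim30a, Trim34a, Trim5 and Trim30d overlapped between groups.

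Many immune TRIM genes respond to interferon, and the core of the interferon-stimulated response element was sought in RefSeq promoters (GRCm38.p6), from 250 bases before to 50 after each start. The core was read as GAAA, any pair of bases, then GAAA, on either strand. It occurred in 1131 of 32851 promoters (3.44%), and in 331 of 8813 tested protein-coding genes with a promoter (3.76%). Of the TRIM genes, 53 had a promoter in the table and 9 of these held the core (16.98%), namely the untested Trim2 and 8 of the 27 tested (29.6%). Those 8 were Trim5, Trim12a, Trim12c, Trim21, Trim26, Trim30a, Trim30d and Trim34a. All of them but Trim21 and Trim26 are related copies from the chromosome 7 cluster, and the windows of Trim5 and Trim12a were identical. The share of 29.6% therefore counts copied promoters as separate genes. None of the 8 was called, with log2 fold changes between -0.25 and 0.17, beside 14.9% of all genes tested. None of the 5 called TRIM genes with a promoter in the table held the core, beside the 3.76% above. With so few genes, neither count can be told apart from these shares. Windows are shown 5' to 3' on the strand of the gene for 3 of these members, with the core in capitals (overlapping cores in Trim21), and they lie within chr7:102565433-102565732 (Trim21, minus strand), chr7:104315446-104315745 (Trim12a, minus strand) and chr7:104244207-104244506 (Trim34a, plus strand).
Trim21: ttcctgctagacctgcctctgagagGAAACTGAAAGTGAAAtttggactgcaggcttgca
Trim12a: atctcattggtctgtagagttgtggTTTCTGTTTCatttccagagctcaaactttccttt
Trim34a: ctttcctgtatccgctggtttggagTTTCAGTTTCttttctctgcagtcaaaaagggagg

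Of 25 tested interferon-stimulated genes, 1 was higher and 4 were lower, beside 14.9% of all genes tested called either way. Their median log2 fold change was -0.02, and with any 1 library left out 0 to 2 were called. Oas3, a sensor of double-stranded RNA, was higher at 2.11 ± 0.340 TPM in L28BME and 0.774 ± 0.150 TPM in ME (0.81, limma adjusted p = 0.0132). Oas3 lay below 1 TPM in every ME library and so entered the test only through L28BME, which fixed its direction. Lower were Ifi203, Ifit2, Xaf1 and Cxcl10, of which Ifi203 was the most abundant, at 24.7 ± 1.01 TPM in L28BME and 33.4 ± 3.07 TPM in ME (-0.42, limma adjusted p = 0.0186). Xaf1 and Cxcl10 lay below 1 TPM in every L28BME library and entered the test only through ME, which likewise fixed their direction. Of 19 tested genes of RNA and DNA sensing, 1 was higher and 1 lower, beside the same 14.9%, and 0 or 1 was called with any 1 library left out. Myd88, the adaptor of Toll-like receptors, averaged 64.9 ± 2.15 TPM in L28BME and 75.5 ± 1.07 TPM in ME (-0.21, limma adjusted p = 0.0185), and Tlr9, a receptor for DNA, 1.87 ± 0.303 TPM in L28BME and 1.06 ± 0.0187 TPM in ME (0.47, limma adjusted p = 0.0486). Ddx58, which encodes RIG-I, averaged 11.4 ± 0.318 TPM in L28BME and 10.2 ± 1.04 TPM in ME and did not pass.

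In the NHL-repeat group, whose members bind RNA or substrates through a C-terminal propeller, 2 of 4 genes were tested. Of these 1 was called higher and 1 lower, beside 14.9% of all genes tested called either way. Trim32, a ligase whose human gene is mutated in a limb-girdle muscular dystrophy, stood at 17.4, 17.2 and 17.8 TPM in L28BME, against 14.1, 12.1 and 14.8 TPM in ME (log2 fold change 0.34 ± 0.084 SE, limma adjusted p = 0.0474). Trim3, a ligase best known in brain, stood at 13.4, 14.97 and 14.93 TPM in L28BME, against 18.7, 17.9 and 17.2 TPM in ME (-0.29 ± 0.068 SE, limma adjusted p = 0.0376). Neither gene had overlap between groups, and both calls were lost whichever library was left out (limma adjusted p = 0.0588 to 0.124 for Trim32 and 0.0744 to 0.108 for Trim3). The log2 fold changes then lay between 0.26 and 0.39 for Trim32 and between -0.32 and -0.25 for Trim3. Trim71, the let-7 target with 4 seed matches, was listed at 0 in all 6 libraries. Trim2, a neuronal ligase, stayed below 0.5 TPM.

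In the group that binds microtubules through a COS box or belongs to muscle, 3 of 8 genes were tested. Trim55 (MURF2; chromosome 3, 19644474 to 19692421), a ligase of the muscle sarcomere, stood at 3.66, 3.99 and 2.86 TPM in L28BME, against 0.125, 0.605 and 0.0319 TPM in ME. It passed the filter only through the L28BME libraries. Its log2 fold change was 1.86 ± 0.21 (SE, limma adjusted p = 0.00330) with a pseudocount of 1 and 3.70 with 0.1, because the ME values are so low. Its relatives Trim54 and Trim63 were listed at 0. Trim46, which bundles microtubules at the start of axons, averaged 7.78 ± 0.945 TPM in L28BME and 6.58 ± 0.720 TPM in ME, and Trim36 1.35 ± 0.214 TPM in L28BME and 1.18 ± 0.193 TPM in ME. Both overlapped between groups.

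Of the cytoplasmic and nuclear members in no other group, 9 of 14 were tested, Trim41 and Trim44 were higher, Trim16 was lower and 6 were not called. The share called over all genes tested was 14.9%. Trim44 (chromosome 2, 102300119 to 102407828), which has a zinc finger of ubiquitin proteases in place of the RING finger, stood at 65.6, 62.9 and 62.4 TPM in L28BME, against 52.7, 54.0 and 51.4 TPM in ME (0.27 ± 0.040 SE, limma adjusted p = 0.00968). Trim41 (chromosome 11, 48806404 to 48817353), whose human protein was described as a ligase of protein kinase C, stood at 34.8, 35.5 and 36.8 TPM in L28BME, against 27.8, 29.4 and 27.8 TPM in ME (0.32 ± 0.048 SE, limma adjusted p = 0.00876). In both genes the lowest L28BME library lay above the highest ME library. A stretch of 31 exonic bases of Trim41 (0.883%) lies opposite exons of Rack1, and whether counting used strand is not stated.

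Trim16 (chromosome 11, 62820231 to 62850808), a RING-less protein that in human cells works with galectin-3 in the removal of damaged lysosomes, stood at 13.5, 12.6 and 11.6 TPM in L28BME, against 16.9, 18.9 and 19.3 TPM in ME. The groups did not overlap, and the log2 fold change was -0.51 ± 0.083 (SE, limma adjusted p = 0.0125). Without ME replicate 2 the log2 fold change was -0.49 and the limma adjusted p 0.0508. Trim16 shares 237 exonic bases on the same strand with Fbxw10. Trim45, which carries a filamin repeat, stood at 2.69, 2.94 and 2.92 TPM in L28BME, against 3.85, 3.80 and 3.67 TPM in ME. These groups did not overlap either, but the difference of -0.31 on the log2 scale (SE 0.084) missed the threshold (limma adjusted p = 0.0595). Trim37, a ligase of peroxisomes and centrosomes, averaged 55.3 ± 1.26 TPM in L28BME and 55.4 ± 0.797 TPM in ME. Trim11, Trim39, Trim62 and Trim68 overlapped between groups as well, and Trim17, Trim47 and Trim69 stayed below 1 TPM.

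**Figure D5:**
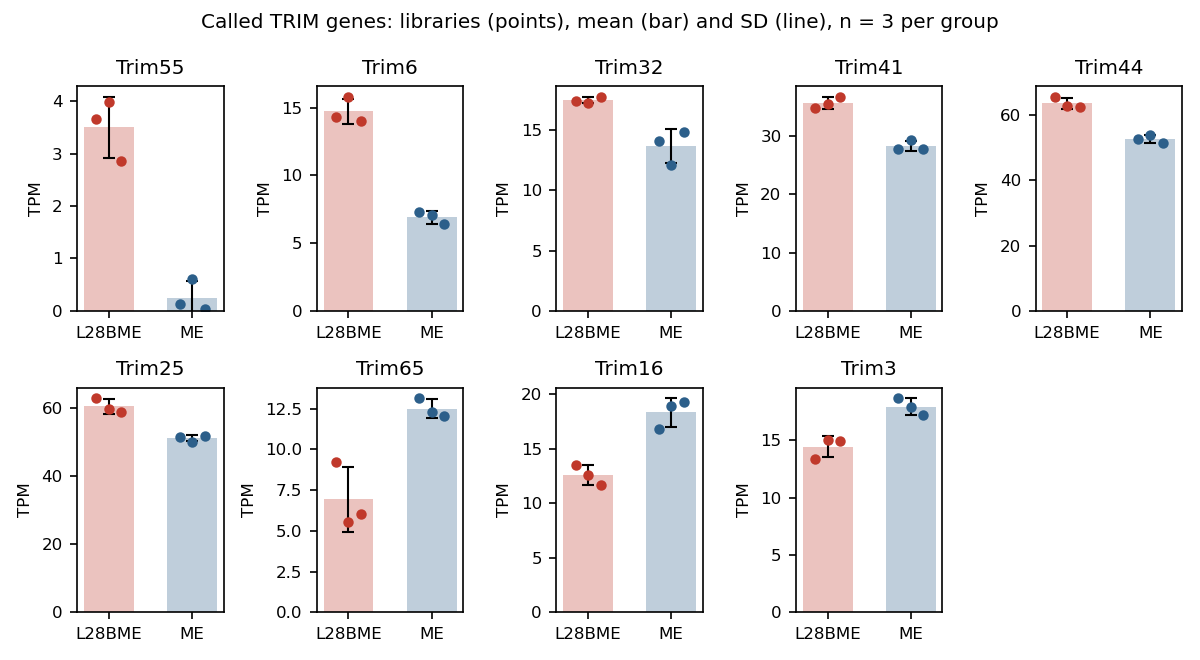
TPM of the 9 TRIM genes called in L28BME against ME, as group means (bars, each axis starting at 0), SD (lines) and libraries (points, n = 3 per group). In every panel the L28BME libraries (red, left) and the ME libraries (blue, right) do not overlap, as in 36.7% of all genes tested. The genes were picked by their call in these same libraries, and Trim55 entered the test only through L28BME.

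None of the 3 tested genes of membranes and vesicles passed. Trim59, a membrane-anchored ligase, averaged 55.4 ± 3.57 TPM in L28BME and 51.7 ± 3.01 TPM in ME, and Trim13, a ligase of the endoplasmic reticulum, 29.8 ± 1.21 TPM in L28BME and 27.8 ± 1.44 TPM in ME. Both overlapped between groups. Trim23, which carries an ARF GTPase domain, averaged 14.9 ± 0.647 TPM in L28BME and 13.6 ± 0.757 TPM in ME, without overlap and with a limma adjusted p of 0.295.

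The erythroid members were Trim58 and Trim10. Trim58, which acts on dynein as red cell precursors lose their nucleus, stood at 6.54, 6.30 and 6.53 TPM in L28BME, against 6.56, 6.57 and 6.03 TPM in ME, and the groups overlapped (0.01 ± 0.073 SE, limma adjusted p = 0.922). Trim10, needed in mouse for late erythroid maturation, read 0, 0.0414 and 0.105 TPM in L28BME and was listed at 0 in all ME libraries. Erythroid markers summed to between 20.4 and 32.7 TPM in L28BME and between 10.5 and 18.7 TPM in ME, and 0 of 3 tested passed (limma).

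TRIM family and related genes under other symbols, which the 68 leave out, gave 5 tested genes. Of these 0 were higher and 2 lower, beside 14.9% of all genes tested called either way. Whichever library was left out, 1 of the 5 was called. Mefv, which encodes the inflammasome sensor pyrin, averaged 2.84 ± 0.332 TPM in L28BME and 5.45 ± 0.509 TPM in ME (-0.75, limma adjusted p = 0.00867). Mid1, a microtubule-bound ligase, averaged 1.56 ± 0.228 TPM in L28BME and 2.48 ± 0.119 TPM in ME (-0.45, limma adjusted p = 0.0452). Pml, the scaffold of nuclear bodies, averaged 29.4 ± 4.16 TPM in L28BME and 38.5 ± 9.06 TPM in ME and did not pass. Upstream of the ligases, 2 of 22 tested genes for ubiquitin and its E1 and E2 enzymes were higher and 0 lower, a share below that 14.9%. With any 1 library left out, 0 or 1 was called. The 2 were the E1 gene Uba6, at 21.5 ± 0.698 TPM in L28BME and 17.9 ± 0.553 TPM in ME (0.26, limma adjusted p = 0.0291), and the E2 gene Ube2e1, at 192 ± 1.41 TPM in L28BME and 177 ± 2.81 TPM in ME (0.12, limma adjusted p = 0.0405).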

How the data were processed

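The authors deposited TPM for each gene and library; per the submitters' processing notes they used bcl2fastq, HISAT2, StringTie and DESeq2 with GRCm38, with versions and the use of strand not stated. The deposited table also lists the percent GC of each gene. Per the labels' protocols, libraries were made with a stranded mRNA kit. The table held 60496 entries for 55471 gene IDs; of the 431 repeated IDs, 0 had values on more than one entry.

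TPM were analysed as log2(TPM + 1) for genes at 1 TPM or more in at least 3 of 6 libraries, with limma 3.58.1 in R 4.3.3 (intensity trend, two-sided). The Benjamini-Hochberg adjustment ran over 13348 genes, and calls needed an adjusted p under 0.05. The fit was tested on simulated data. Depth is unknown, so no count model or interval was used. Same-numbered libraries did not deviate together (correlations -0.03, -0.07 and -0.05), so replicate numbers were not used as pairs. Named genes were all called TRIM genes, the most abundant of each role, Trim71, Trim25, Trim58, Trim10 and those without overlap between groups. Members and lists were chosen with earlier results of these data known. Positions and 3' UTRs came from GENCODE M21, microRNAs and promoters from RefSeq.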

Additional observations from a re-analysis of the deposited data

How the results depend on the processing

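The small number of libraries (n = 3 per group) and the lack of counts limit precision. The count of TRIM genes called higher was 6, and it ranged from 3 to 5 when any 1 library was left out, being 3 without L28BME replicate 1, while over all genes 592 to 694 were called higher and 447 to 566 lower; Trim55 fails the filter whenever an L28BME library is missing. With a replicate block, which the labels do not call for, 4 were higher and 0 lower, beside 548 higher and 400 lower over all genes. The count called lower was 3, it was 1 with no filter on low values, and it ranged from 0 to 2 with 1 library left out. Trim6, Trim41 and Trim44 kept their call under each of the 17 alternatives run. The Trim32 call was also lost with no filter (limma adjusted p = 0.0814), quantile normalization (0.0549) and no intensity trend (0.05005), the Trim3 and Trim65 calls with no filter (0.0631 and 0.0638), and Trim45 was gained among protein-coding genes only (0.0348) and with no intensity trend (0.0141). With 1 library left out, the called count was 1 for TRIM family and related genes under other symbols. It ranged from 0 to 1 for ubiquitin and its E1 and E2 enzymes and from 0 to 1 for RNA and DNA sensing. For interferon-stimulated genes and for let-7 uridylation and LIN28 it ranged from 0 to 2, and for TRIM28 partners from 1 to 2. The difference in summed TPM was 39.0 without Trim28 and 16.8 to 31.8 with 1 library left out. Among genes that were not called, the Trim27 log2 fold change ran between -0.0936 and 0.0336 with 1 library left out, being 0.0336 without L28BME replicate 3. That of Trim58 ran between -0.0216 and 0.0323, being -0.0216 without ME replicate 3, and was -0.0067 with quantile normalization. The cause of these changes was not tested. A planned search for a RING pattern in TRIM proteins was not run.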
